A study of Mus musculus with 8 samples.

Results

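The glycosyltransferases described here are the enzymes that build the sugar chains of mucins, other glycoproteins and glycolipids. They were chosen by name, as all genes whose symbol begins with Galnt, C1galt, Gcnt, B3gnt, B3galt, B4galt, B4galnt, Fut, St3gal, St6gal or St8sia followed by a number (or, for the St6galnac genes, by the letter n). The rule took 77 of 35963 gene symbols, with 299 annotated transcripts. Among them the pseudogene Fut4-ps1, the antisense transcript St8sia3os and the chaperone gene C1galt1c1 are not enzyme genes. RNA came from colonic epithelial cells released from the proximal colon, and the mice were 4 weeks old. Of the 8 libraries, 4 are labelled Ccna2-KO and came from Ccna2 fl/fl vil-Cre mice, in which the cyclin A2 gene is flanked by Cre target sites and Cre is driven by the villin promoter, active throughout the intestinal epithelium. The 4 controls, called wild type in the sample labels, came from Ccna2 fl/fl mice without Cre, so both groups carry the flanked gene. The sources used here give neither strain nor sex. Nor do they say that the libraries of a group came from different mice, and the p-values then cover only the spread between these samples, which may be technical.

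Mucin-type O-glycans start when a Galnt enzyme attaches N-acetylgalactosamine to serine or threonine. Core enzymes (C1galt1, B3gnt6 and the Gcnt genes) then add the next sugars, and B3gnt, B3galt and B4galt enzymes lengthen the chain with N-acetylglucosamine and galactose. Fucosyltransferases (Fut) and sialyltransferases (St3gal, St6gal, St6galnac, St8sia) cap the ends. In the colon these chains make up much of the mucus gel, and they serve as attachment sites and food for gut bacteria.

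Depth ranged from 27162083 to 34386731 estimated counts per library, and the members took 0.552% to 0.657% of the counts assigned to genes. The count of Ccna2 itself did not separate the groups. It was 1557, 648, 387 and 605 in control replicates 1 to 4 and 541, 886, 853 and 414 in the others (log2 fold change -0.33 ± 0.41 SE, edgeR adjusted p = 0.673). Groups are therefore named by their labels, and every direction rests on them. Epcam, found throughout the epithelium, lay between 1777 and 2030 CPM (counts scaled to a common library size) in all 8 libraries. Control replicate 1 stood apart from the other controls on many genes. The labels also give each library a number. Control replicates 2, 3 and 4 and Ccna2-KO replicate 4 have numbers from 595 to 598 (the low set), and the other 4 libraries have numbers from 621 to 641 (the high set). The labels do not say what the numbers stand for. Values from a fit with a term for this set are called set-adjusted. In that fit, which also holds genotype, 22.3% of genes differed between the sets (9.43% higher and 12.9% lower in the low set). The high set has control replicate 1 as its only control, and the low set has Ccna2-KO replicate 4 as its only library of the other group. Set differences and set-adjusted values lean on these libraries, and a set effect cannot be told apart from their own traits.

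Of the 77 members, 57 had enough counts to be tested, and 8 differed between the labelled groups at an adjusted p under 0.05 (edgeR quasi-likelihood test, adjusted over the 15893 genes tested). Gcnt1, B3galt5, Fut2, Galnt1 and Galnt18 rose and Fut9, St6gal1 and St8sia4 fell in the libraries labelled Ccna2-KO. These 8 make up 14.0% of the members tested, against 12.1% of all genes tested (6.40% higher and 5.71% lower), so the members were called about as often as genes at large. The median log2 fold change was 0.018 over the tested members and -0.015 over all genes tested. The groups did not overlap in 15 of the 57 (26.3%, 11 higher and 4 lower), against 19.0% of all genes tested (9.41% higher and 9.60% lower). A gene is tested when it passes a count minimum in at least 4 libraries, so a member of low level can enter through the group in which it is high.

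The number called depended on which library was left out. It lay between 2 (without Ccna2-KO replicate 1 or Ccna2-KO replicate 3) and 19 (without control replicate 1), with 3 to 5 without any 1 of the other 5 libraries. Among all genes the number called lay between 972 and 4627 in the same fits. Set-adjusted, 8 members were higher and 6 lower, against 9.29% and 8.90% of all genes tested (18.2% in either direction), and 7 of the 8 calls held.

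**Figure D1:**
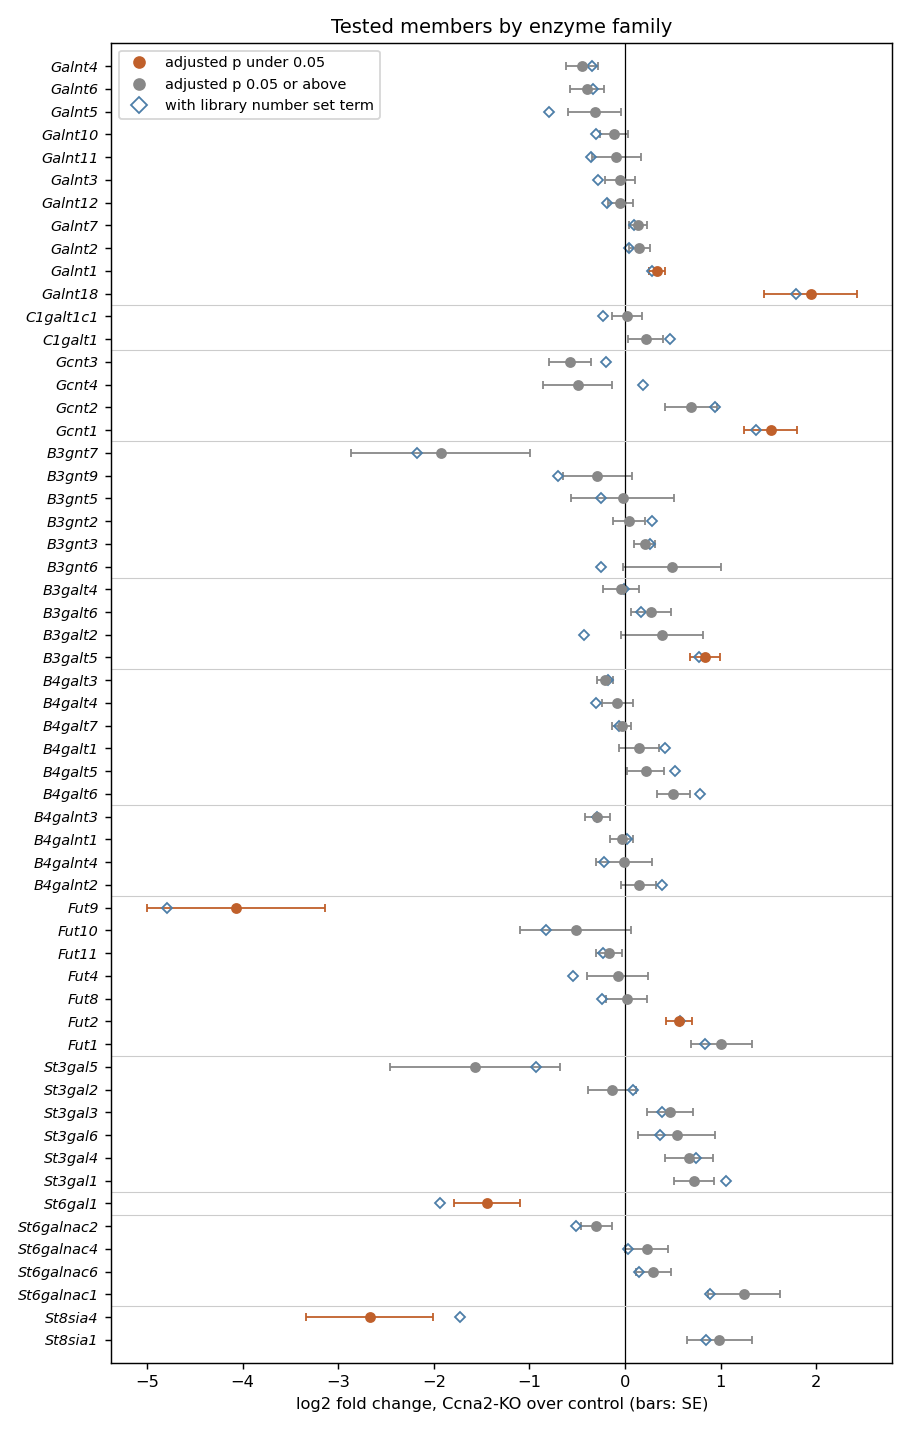
Log2 fold change of each of the 57 tested members, libraries labelled Ccna2-KO over controls, in the order of chain building; bars are standard errors, orange marks an adjusted p under 0.05 and open diamonds give the set-adjusted value. Most members lie close to 0, with Gcnt1, Galnt18, B3galt5, Fut2 and Galnt1 to the right and Fut9, St8sia4 and St6gal1 to the left.

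Summed over all members, the level was 5386 to 6067 CPM in the controls and 6099 to 6706 CPM in the other group, without overlap. The group means were 5801 and 6475 CPM. Most of that difference came from B3galt5 (means of 372 and 664 CPM) and St3gal4 (431 and 685 CPM). CPM values are not corrected for gene length, so levels are compared between libraries and not between genes. By family the sums parted in 4 cases, of which B3galt, St3gal and St6gal largely repeat a single member each. Of the mean sums in the controls and the other group, B3galt5 made up 372 of 387 and 664 of 681 CPM. St3gal4 made up 431 of 599 and 685 of 927 CPM, and St6gal1 30.7 of 30.8 and 11.26 of 11.31 CPM. The B3galt sum was 296 to 472 CPM in the controls and 648 to 751 CPM in the other group. The St3gal sum was 391 to 715 against 822 to 1187 CPM. The St6gal sum was 20.1 to 45.7 against 6.20 to 17.9 CPM, and the St8sia sum 1.76 to 4.21 against 1.11 to 1.62 CPM. The parting of the St8sia sums rested on control replicate 1, where the untested St8sia5 made up 1.81 of 2.89 CPM. Without St8sia5 that control summed to 1.08 CPM, below every library of the other group. In the other 8 families the groups overlapped.

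The Galnt enzymes, which start O-glycans, were represented by 16 symbols, of which 11 were tested. Galnt1 and Galnt18 rose and 0 fell (2 of the family were lower at an unadjusted p under 0.05, and DESeq2 and limma voom also called 0 lower). Galnt1 was at 93.7, 82.9, 82.7 and 84.7 CPM in control replicates 1 to 4 and at 107, 110.1, 109 and 105 CPM in Ccna2-KO replicates 1 to 4. The 4 latter libraries all lay above the controls, and the rise was small, 1.26-fold (log2 fold change 0.33 ± 0.08 SE, adjusted p = 0.0346). Galnt18, a little-expressed member, was at 0.941, 0.200, 0.676 and 0.151 CPM in the controls and 1.82, 1.74, 1.87 and 2.20 CPM in the other group (1.94 ± 0.49, adjusted p = 0.0316). It too had no overlap between the groups. With 5 counts each in control replicates 2 and 4, it entered through the group in which it was high, which makes a lack of overlap likelier. Both calls were lost without any 1 of the 7 libraries other than control replicate 1, with adjusted p of up to 0.101 for Galnt1 and up to 0.0766 for Galnt18.

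Galnt6 was at 347, 307, 416 and 384 CPM in the controls and 301, 186, 314 and 300.4 CPM in the libraries labelled Ccna2-KO. Its difference did not pass (-0.40 ± 0.18, adjusted p = 0.189), and only Ccna2-KO replicate 2 lay far from the rest of its group. Galnt4 was at 157, 202, 223 and 275 CPM against 164, 151, 171 and 140.0 CPM (-0.45 ± 0.16, adjusted p = 0.112). Control replicate 1 lay within the range of the other group, and without it the value was -0.57 (adjusted p = 0.00708). Galnt4 shares 420 exonic bases with Poc1b on the same strand in the GENCODE annotation, so reads could be divided between them. Of the other 7 tested members of the family, Galnt7 had no overlap between the groups, at 146 to 167 CPM in the controls and 169.7 to 182 CPM in the others (0.13 ± 0.09, adjusted p = 0.391). The remaining ones, Galnt2, Galnt3, Galnt5, Galnt10, Galnt11 and Galnt12, had log2 fold changes between -0.32 and 0.15.

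**Figure D2:**
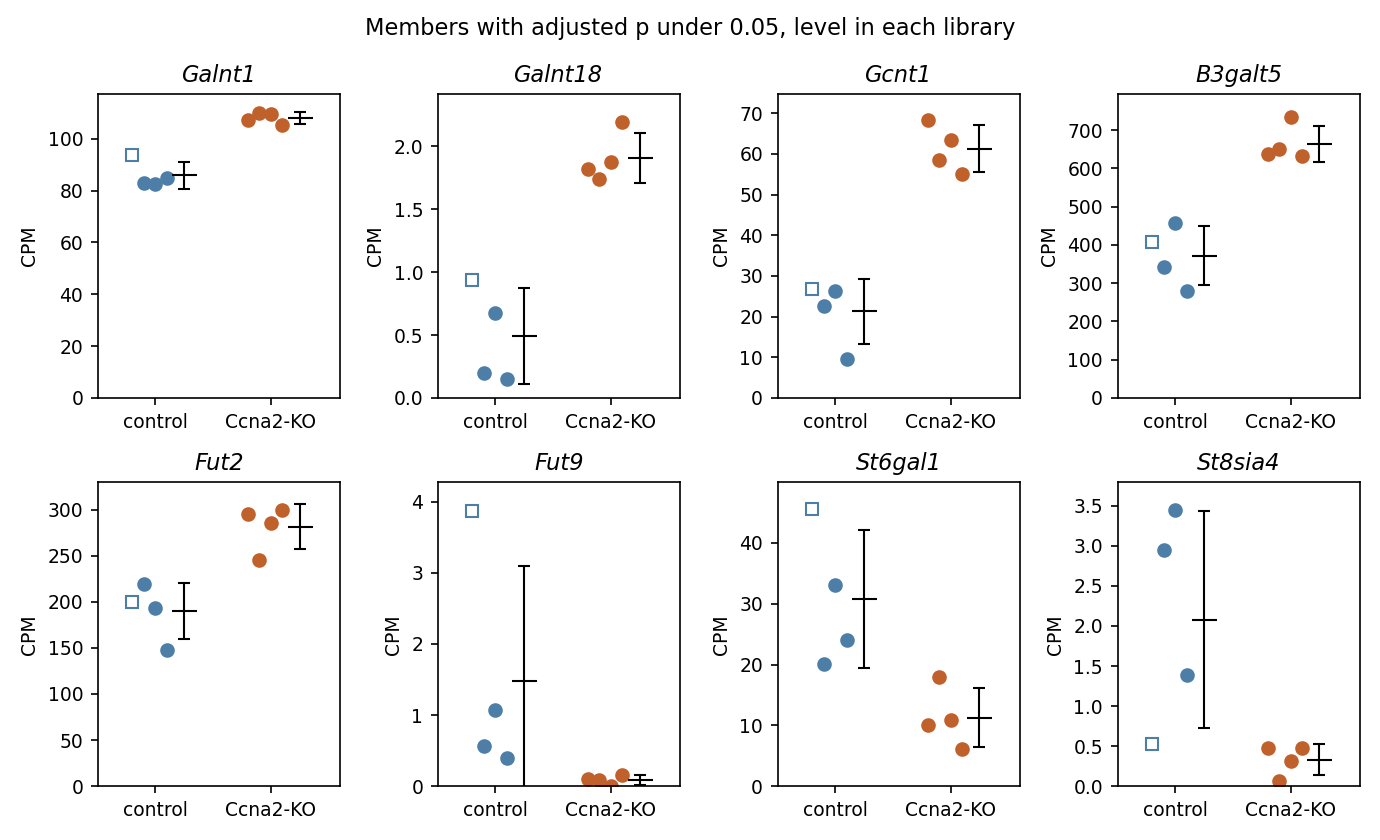
Level in CPM (linear axes from 0) of the 8 members with an adjusted p under 0.05, 1 point per library, with mean and SD of 4 libraries; control replicate 1 is the open square, and bars that would pass below 0 end at 0. The groups do not overlap in any of the 8 panels, and for St8sia4 control replicate 1 (0.523 CPM) lies just above the highest library labelled Ccna2-KO (0.472 CPM).

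Among the core enzymes Gcnt1 changed most clearly. Gcnt1 adds the N-acetylglucosamine branch to the simplest O-glycan core and is the form of this enzyme known from leukocytes and many other tissues. It was at 26.7, 22.6, 26.4 and 9.63 CPM in the controls and at 68.3, 58.4, 63.5 and 55.1 CPM in the libraries labelled Ccna2-KO, a 2.88-fold rise (1.52 ± 0.28, adjusted p = 0.00851). Every library labelled Ccna2-KO held more than double the level of every control. The call held when any 1 library was left out (adjusted p between 0.00163 and 0.0281) and set-adjusted (1.37, adjusted p = 0.0192). Its most abundant transcript, with 88.3% of the gene's counts, was also called when transcripts were tested singly (1.64 ± 0.28, adjusted p = 0.0481).

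Gcnt3, the branching enzyme known from mucin-secreting tissues, had a contrasting pattern. Its level was 236, 494, 479 and 471 CPM in the controls and 293, 268, 247 and 319.6 CPM in the libraries labelled Ccna2-KO. Control replicate 1 was the lowest of all 8, while the other controls all lay above the other group. Over all libraries the difference did not pass (-0.57 ± 0.22, adjusted p = 0.131), and without control replicate 1 it was -0.77 (adjusted p = 0.000836). Set-adjusted it was -0.20 (adjusted p = 0.436). Gcnt4, a further branching enzyme, followed the same order, where control replicate 1 held 6.48 CPM, the remaining controls 21.4 to 26.8 CPM and the other group 9.83 to 15.9 CPM (-0.50 ± 0.37, adjusted p = 0.438). Without control replicate 1 the Gcnt4 value was -0.78 (adjusted p = 0.00687), and set-adjusted it turned positive, at 0.19 (adjusted p = 0.747).

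Gcnt2, which puts branches on long chains and forms the I blood group structure, was at 9.83, 25.4, 20.8 and 11.6 CPM in the controls and 27.02, 30.1, 26.5 and 25.2 CPM in the other group. The groups overlapped by a narrow margin and the difference did not pass (0.69 ± 0.28, adjusted p = 0.146). C1galt1, which adds galactose to form the simplest core, was at 36.4, 63.8, 71.2 and 59.6 CPM against 69.7, 66.1, 63.6 and 68.9 CPM (0.21 ± 0.18, adjusted p = 0.505). For its chaperone C1galt1c1 the value was 0.020 ± 0.16 (adjusted p = 0.955). B3gnt6, which makes the alternative core typical of colonic mucin, was at 45.8, 9.42, 12.6 and 17.0 CPM in the controls and 30.6, 41.3, 34.9 and 12.001 CPM in the libraries labelled Ccna2-KO (0.49 ± 0.51, adjusted p = 0.607). These B3gnt6 values followed the number sets more than the labels. The high set held 30.6 to 45.8 CPM and the low set 9.42 to 17.0 CPM, a log2 difference of -1.69 between low and high set (adjusted p = 0.00477) in the fit that also holds genotype.

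Most B3gnt enzymes, but not the core enzyme B3gnt6, add N-acetylglucosamine to a galactose end and so extend chains. None of the 6 tested passed in edgeR, with 0 at an unadjusted p under 0.05 and 0 in DESeq2 and in limma voom. B3gnt3 was at 224, 241, 229 and 199 CPM in the controls and 248, 235, 256 and 291 CPM in the libraries labelled Ccna2-KO (0.21 ± 0.11, adjusted p = 0.267). B3gnt7 had the widest spread within a group, at 382, 15.9, 58.0 and 17.0 CPM in the controls against 28.4, 31.1, 46.8 and 17.6 CPM (-1.93 ± 0.94, adjusted p = 0.229). Its negative value rested on control replicate 1, and without that library it was 0.034 (adjusted p = 0.972). B3gnt5, which starts a series of glycolipid chains, was likewise highest in control replicate 1 (44.5 CPM, with 6.46 to 13.6 CPM for the remaining controls and 16.3 to 19.2 CPM for the other group). Without that library B3gnt5 was higher in the libraries labelled Ccna2-KO (0.94, adjusted p = 0.0153).

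B3galt5 transfers galactose to N-acetylglucosamine ends. It was at 406, 342, 457 and 280.3 CPM in the controls and at 637, 652, 734 and 632 CPM in the libraries labelled Ccna2-KO. This 1.79-fold rise (0.84 ± 0.16, adjusted p = 0.00947) left a wide gap between the groups. It held without any 1 library (adjusted p between 0.00335 and 0.0356) and set-adjusted (0.77, adjusted p = 0.0117). One transcript held 92.5% of the counts of B3galt5 and, tested singly over all transcripts, missed the threshold (0.86 ± 0.16, adjusted p = 0.0594). The other tested B3galt genes did not pass. B3galt2 was at 5.05, 2.47, 3.51 and 4.12 CPM in the controls and 6.57, 6.45, 5.34 and 1.37 CPM in the others (0.38 ± 0.43, adjusted p = 0.633), with the lowest value in Ccna2-KO replicate 4. B3galt4 and B3galt6 had log2 fold changes of -0.043 and 0.27.

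Promoter windows from RefSeq (GRCm38.p6; 250 bases before to 50 after an annotated start) are shown for Gcnt1 and B3galt5, whose calls held without any 1 library, and for St8sia4, which fell. Windows were found for 54 of the 77 members. Each of the 3 shown is the annotated start nearest to the GENCODE start of the gene's most abundant transcript, at a distance of 0 bases for Gcnt1, 234 for B3galt5 and 23 for St8sia4. Capitals mark matches, on either strand, to 5 short motifs. These were the TATA box, TATAAA, the core bound by Cdx factors, TTTATG, a core bound by Hnf1 factors, GTTAAT, the GC box, GGGCGG, and the E box, CACGTG.
Gcnt1, chr19:17356618-17356917, minus strand: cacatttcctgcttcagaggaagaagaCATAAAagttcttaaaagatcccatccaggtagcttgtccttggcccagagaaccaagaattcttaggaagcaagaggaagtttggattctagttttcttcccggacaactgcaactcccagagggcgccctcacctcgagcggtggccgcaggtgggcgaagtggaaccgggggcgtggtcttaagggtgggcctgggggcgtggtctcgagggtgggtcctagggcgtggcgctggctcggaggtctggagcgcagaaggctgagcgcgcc
B3galt5, chr16:96280782-96281081, plus strand: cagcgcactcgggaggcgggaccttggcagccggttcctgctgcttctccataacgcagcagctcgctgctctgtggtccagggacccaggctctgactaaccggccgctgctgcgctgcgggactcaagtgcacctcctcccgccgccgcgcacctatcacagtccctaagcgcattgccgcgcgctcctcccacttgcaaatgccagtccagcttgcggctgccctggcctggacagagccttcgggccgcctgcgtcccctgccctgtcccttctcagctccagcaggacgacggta
St8sia4, chr1:95667545-95667844, minus strand: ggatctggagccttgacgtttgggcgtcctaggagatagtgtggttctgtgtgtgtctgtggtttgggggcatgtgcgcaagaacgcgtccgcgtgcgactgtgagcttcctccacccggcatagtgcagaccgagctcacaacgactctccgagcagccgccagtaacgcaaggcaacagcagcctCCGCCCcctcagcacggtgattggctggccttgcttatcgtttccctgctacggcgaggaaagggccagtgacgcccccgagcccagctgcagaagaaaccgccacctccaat
The Gcnt1 window held 1 Cdx core, written on the opposite strand, a match found in 11.85% of the 32851 promoter windows. The St8sia4 window held 1 GC box, found in 35.66% of windows, and the B3galt5 window held 0 of the 5 motifs. A match describes letters in this window and not binding.

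Most B4galt enzymes add galactose to N-acetylglucosamine or, for B4galt5 and B4galt6, to the glucose of glycolipids. In edgeR 0 of 6 tested passed (1 higher and 1 lower at an unadjusted p under 0.05, 1 higher in DESeq2 and 0 in limma voom). B4galt6 was at 39.6, 61.6, 67.2 and 63.2 CPM in the controls and 78.4, 79.9, 72.6 and 97.6 CPM in the libraries labelled Ccna2-KO. Its groups did not overlap, yet the difference missed the threshold (0.50 ± 0.17, adjusted p = 0.0881). Set-adjusted it passed (0.78, adjusted p = 0.00127), as it did without control replicate 1 (0.36, adjusted p = 0.0282) and in DESeq2 (adjusted p = 0.0474). B4galt5 also passed set-adjusted (0.52, adjusted p = 0.0304). B4galt1 was at 79.1, 161, 152 and 114 CPM against 146, 118, 152 and 144 CPM (0.15 ± 0.21, adjusted p = 0.715). B4galt3 had no overlap in the other direction, at 38.0 to 41.9 CPM in the controls and 33.6 to 36.5 CPM in the others (-0.21 ± 0.08, adjusted p = 0.154). Its exons overlap 791 bases of Ppox on the opposite strand, and the sources used here do not say whether the libraries were stranded.

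Of the B4galnt enzymes, which add N-acetylgalactosamine at chain ends, 0 of 4 tested passed in edgeR (1 lower at an unadjusted p under 0.05, 0 in DESeq2 and in limma voom). B4galnt2 makes the Sda structure, a terminal feature of mouse colonic mucin. It was at 646, 1142, 1192 and 1053 CPM in the controls and 1149, 1035, 1149.6 and 1116 CPM in the libraries labelled Ccna2-KO (0.14 ± 0.18, adjusted p = 0.684). Apart from the low value of control replicate 1, the groups covered the same range. B4galnt3 was at 50.6, 47.7, 48.8 and 36.1 CPM against 40.0, 33.8, 35.0 and 41.1 CPM (-0.29 ± 0.13, adjusted p = 0.187).

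Fucosyltransferases moved in both directions. Fut2, the secretor enzyme that puts the terminal fucose of the H structure on mucosal glycans, rose 1.48-fold. It was at 199.8, 219, 193 and 148 CPM in the controls and 295, 246, 285 and 299.8 CPM in the libraries labelled Ccna2-KO (0.57 ± 0.14, adjusted p = 0.0272). The groups did not overlap. The call was lost without control replicate 3 or 4 or without Ccna2-KO replicate 1, 3 or 4 (adjusted p up to 0.0764). Fut1 makes the same structure and lies 27531 bases from Fut2 on chromosome 7 (GRCm38). It was at 0.453, 0.479, 0.492 and 0.878 CPM in the controls and 1.28, 1.29, 1.37 and 0.706 CPM in the other group (1.01 ± 0.32, adjusted p = 0.0712). The groups overlapped through control replicate 4 and Ccna2-KO replicate 4. DESeq2 called Fut1 higher (adjusted p = 0.0408).

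Fut9, an enzyme of the Lewis x structure, fell from a low level. Its counts were 111, 14, 35 and 13 in the controls and 3, 3, 0 and 4 in the libraries labelled Ccna2-KO, or 3.87, 0.559, 1.08 and 0.394 CPM against 0.101, 0.0899, 0 and 0.157 CPM. Only the controls met the count minimum for testing, so Fut9 entered through the group in which it was high. No library of the second group reached the lowest control, which such an entry makes likelier (-4.07 ± 0.93, adjusted p = 0.0223). The size rested in part on control replicate 1, without which the log2 fold change was -2.96 (adjusted p = 0.00691). Without Ccna2-KO replicate 1, 2 or 3 the call was lost (adjusted p up to 0.0690). Fut4, the other main Lewis x enzyme here, was at 20.6 to 56.3 CPM and 19.2 to 38.0 CPM and did not pass (-0.08 ± 0.32, adjusted p = 0.909), though set-adjusted it was lower (-0.55, adjusted p = 0.0266). Fut8, which fucosylates the core of N-glycans, had a log2 fold change of 0.018, Fut10 of -0.52 and Fut11 of -0.17, and none of these passed. Fut7, which completes sialyl Lewis x, was below the minimum for testing, with 0, 0, 2 and 0 counts in the controls and 8, 4, 11 and 4 in the libraries labelled Ccna2-KO. Scaled to depth this is a ratio of 13.4 (95% interval 3.36 to 116, which covers counting error only). The ratio was taken because the groups did not overlap, which favours a value far from 1.

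Among the St3gal sialyltransferases 0 of 6 tested passed in edgeR (2 higher at an unadjusted p under 0.05, 1 higher in DESeq2 and 0 in limma voom), although 4 had positive fold changes and the family median was 0.50. St3gal1, which caps the simplest O-glycan core, was at 22.8, 43.7, 49.4 and 44.5 CPM in the controls and 69.9, 63.7, 59.3 and 70.8 CPM in the libraries labelled Ccna2-KO. All libraries of the second group lay above all controls, and the value just missed the threshold (0.72 ± 0.21, adjusted p = 0.0558). It passed set-adjusted (1.055, adjusted p = 0.00452), in DESeq2 (adjusted p = 0.0151) and without control replicate 1 (0.52, adjusted p = 0.00255). St3gal4, which sialylates galactose at chain ends, was at 477, 567, 438 and 243 CPM against 632, 575, 616 and 917 CPM (0.67 ± 0.25, adjusted p = 0.126). Here too the groups did not overlap, with a narrow gap between control replicate 2 and Ccna2-KO replicate 2.

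St3gal6 was at 109, 25.7, 39.8 and 31.0 CPM in the controls and 68.9, 79.6, 68.3 and 81.8 CPM in the other group (0.54 ± 0.40, adjusted p = 0.450). Control replicate 1 was the highest of all 8 libraries and the other 3 controls were the lowest, and without it the value was 1.21 (adjusted p = 0.000481). St3gal6 shares 1603 exonic bases with Dcbld2 on the opposite strand. St3gal5, which makes the simplest ganglioside, was uneven in both groups, at 0.383, 5.87, 2.40 and 3.45 CPM against 0.438, 0.330, 2.96 and 0.275 CPM (-1.57 ± 0.89, adjusted p = 0.305). St3gal2 and St3gal3 had log2 fold changes of -0.14 and 0.47.

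St6gal1, which adds sialic acid to the galactose ends of N-glycans and is also abundant in lymphocytes, fell. It was at 45.6, 20.1, 33.1 and 24.1 CPM in the controls and 10.1, 17.9, 10.9 and 6.16 CPM in the libraries labelled Ccna2-KO, a 2.72-fold difference (-1.44 ± 0.34, adjusted p = 0.0250). The groups did not overlap, and control replicate 1 was the highest library. Set-adjusted the value was -1.93 (adjusted p = 0.00152). Without control replicate 3, Ccna2-KO replicate 1 or Ccna2-KO replicate 3 the call was lost (adjusted p up to 0.0762). St8sia4, which builds polysialic acid chains, fell from 0.523, 2.95, 3.44 and 1.39 CPM to 0.472, 0.0600, 0.312 and 0.471 CPM (-2.67 ± 0.67, adjusted p = 0.0311). Control replicate 1 was close to the other group. With 2 counts in Ccna2-KO replicate 2, St8sia4 entered testing through the controls, which makes a lack of overlap likelier. The St8sia4 call was lost set-adjusted (-1.72, adjusted p = 0.0931), in limma voom, and without any 1 of the 7 libraries other than control replicate 1 (adjusted p up to 0.0914).

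Leukocyte genes moved with the groups beside these falls. Of 15 measured T cell and intraepithelial lymphocyte genes 12 were tested and all 12 fell, against 5.71% of all genes tested, with a median log2 fold change of -2.74. Summed, control replicate 1 held 43.0 CPM of them, the remaining controls 76.9 to 192 CPM and the other group 13.5 to 26.4 CPM. No gene of this list was at 0 in all libraries of a group, and Cd5 alone was at 0 in any library, within the group labelled Ccna2-KO. Among 12 myeloid and pan-leukocyte genes 5 fell and 1 rose, with sums of 55.8 to 114 CPM and 27.4 to 40.9 CPM. Control replicate 1 was thus the lowest control for T cell genes and for St8sia4 but the highest for St6gal1. B and plasma cell genes, of which 2 of 9 measured were tested and 0 passed in edgeR, DESeq2 or limma voom (0 at an unadjusted p under 0.05), summed to 1.79 to 2.80 and 1.65 to 2.76 CPM. Of 9 enteroendocrine genes 4 fell (sums of 176 to 280 and 49.1 to 69.6 CPM), and of 6 tested tuft cell genes 3 fell (16.3 to 27.7 and 10.8 to 13.9 CPM). The part of these cells in the falls of St6gal1, St8sia4 and Fut9 was not tested. In bulk RNA fewer cells of a type and less RNA per cell cannot be told apart.

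The St6galnac enzymes add sialic acid to N-acetylgalactosamine, and 0 of 4 tested passed in edgeR (1 higher at an unadjusted p under 0.05, 0 in DESeq2 and in limma voom). St6galnac6 was at 718, 432, 438 and 419 CPM in the controls and 644, 586, 620.3 and 616 CPM in the libraries labelled Ccna2-KO (0.30 ± 0.18, adjusted p = 0.336). As for St3gal6, control replicate 1 was the highest of all and the other 3 controls the lowest. St6galnac4 lies 12 bases from St6galnac6 on chromosome 2 (GRCm38) and showed the same order, with 36.7 CPM for control replicate 1, 17.9 to 21.0 CPM for the remaining controls and 25.6 to 30.7 CPM for the other group (0.23 ± 0.22, adjusted p = 0.579). Without control replicate 1 both passed with a positive value (0.52, adjusted p = 0.00220 for St6galnac6, and 0.53, adjusted p = 0.00495 for St6galnac4). St6galnac1, which makes sialyl Tn, was scarce, at 0.314, 0.239, 0.123 and 0.182 CPM against 0.371, 0.600, 0.687 and 0.353 CPM. Its groups did not overlap and it did not pass (1.24 ± 0.37, adjusted p = 0.0606). St6galnac2 did not pass either (-0.30 ± 0.16, adjusted p = 0.286) and was lower set-adjusted (-0.51, adjusted p = 0.0143). St8sia1, which adds a further sialic acid to gangliosides, was at 0.488, 0.239, 0.707 and 0.363 CPM in the controls and 0.741, 0.959, 1.15 and 0.745 CPM in the others, without overlap (0.98 ± 0.34, adjusted p = 0.0958). St6galnac1 and St8sia1 met the count minimum in too few controls to enter through them, which makes a lack of overlap likelier.

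**Figure D3:**
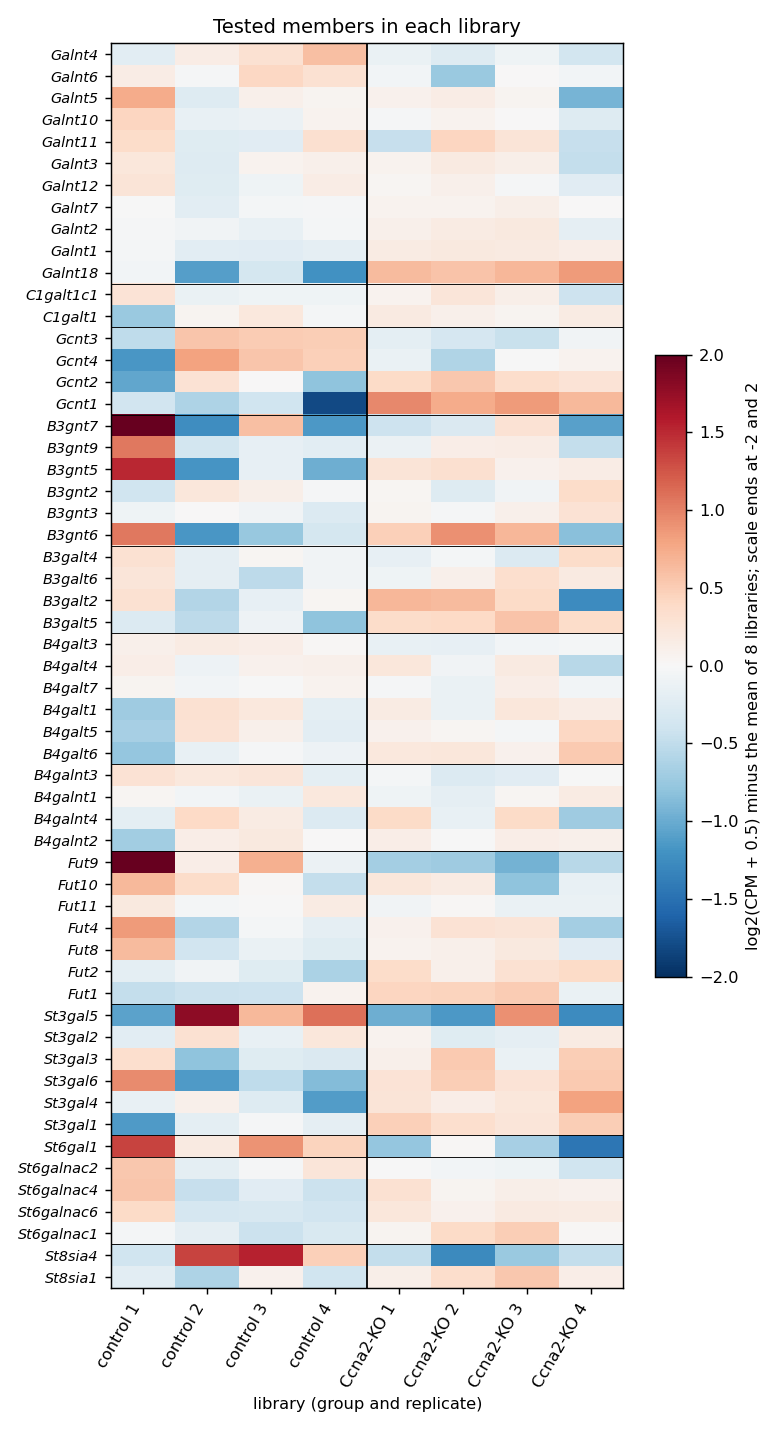
Level of each of the 57 tested members in each library, as log2(CPM + 0.5) minus the mean over 8 libraries, with families divided by lines and colours saturating at -2 and 2. Control replicate 1 differs from the other controls on many rows, such as B3gnt7, Gcnt3, Gcnt4 and St3gal6, and Ccna2-KO replicate 4 shares low values of B3gnt6, Fut4 and Galnt5 with control replicate 2.

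The set-adjusted fit called 7 members that the unadjusted fit did not. St3gal1, B4galt5 and B4galt6 were higher. Galnt5 (-0.79, adjusted p = 0.00400), B3gnt9 (-0.70, adjusted p = 0.0430), Fut4 and St6galnac2 were lower. Leaving out control replicate 1 added 11 members to the 8, but the 3 controls then left all come from the low set. Higher among these 11 were B3gnt5, B4galt6, St3gal1, St3gal3, St3gal6, St6galnac1, St6galnac4 and St6galnac6, and lower were Galnt4, Gcnt3 and Gcnt4. Genes called in both alternatives beyond the 8 were B4galt6 and St3gal1.

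**Figure D4:**
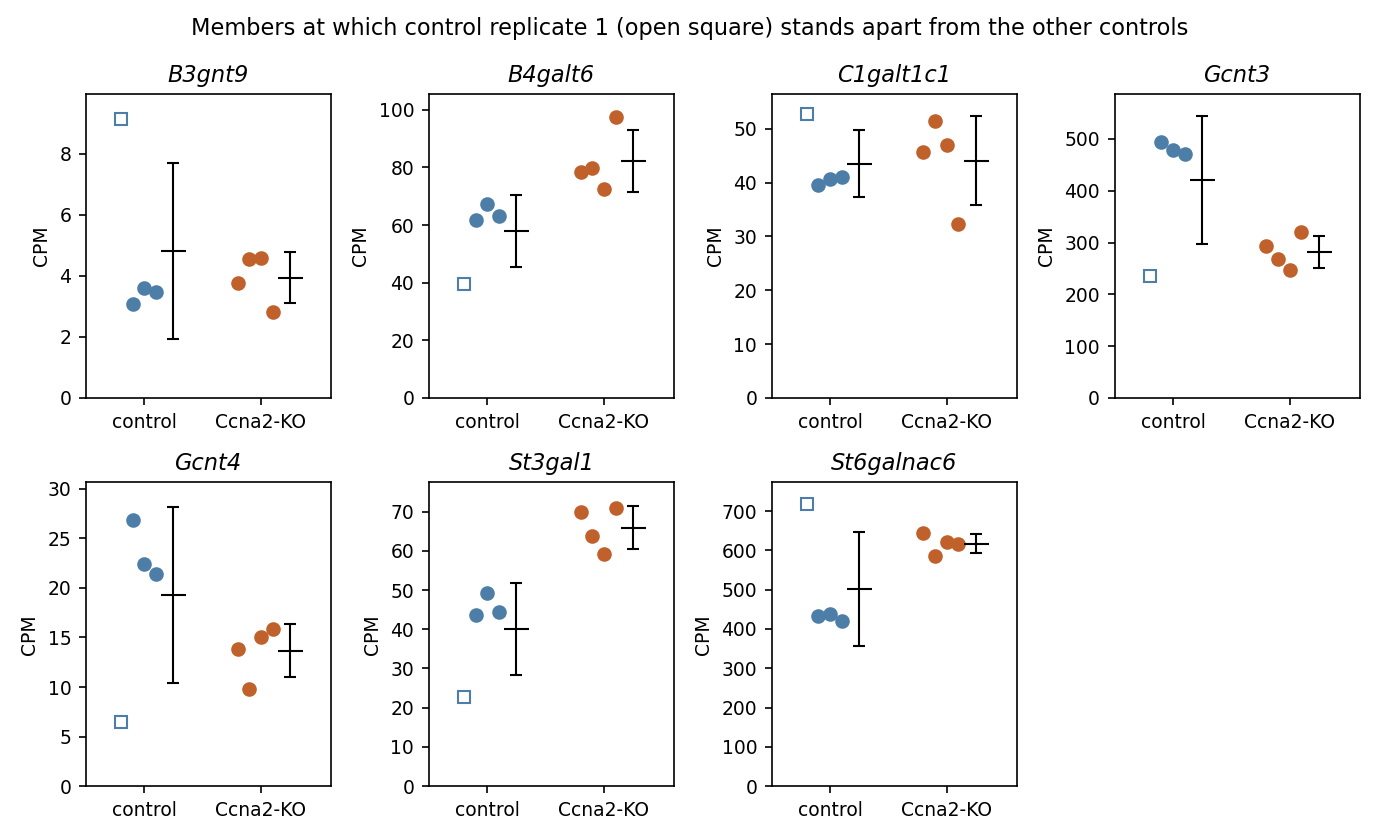
Level in CPM (linear axes from 0) of the 7 members at which the gap of control replicate 1 (open square) to its nearest control was over 0.829 of the control range on the scale of log2(CPM + 0.5), with mean and SD of 4 libraries per group. In Gcnt3, Gcnt4, B4galt6 and St3gal1 this library is the lowest of all 8, and in B3gnt9, C1galt1c1 and St6galnac6 it is the highest.

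The summed level of goblet cell genes overlapped between the groups. Of 13 goblet cell genes 1 rose (Reg4) and 1 fell (Atoh1), with a median log2 fold change of -0.13. Set-adjusted, 0 rose and 4 fell (Atoh1 at -0.98, Creb3l1 at -0.88, Spdef at -0.88 and Agr2 at -0.72, with adjusted p = 0.000629, 0.00377, 0.0229 and 0.0245), and Reg4 was at 0.92 (adjusted p = 0.0523). Summed, control replicate 1 held 18619 CPM, the remaining controls 8492 to 13263 CPM and the other group 8672 to 14010 CPM. Of 12 colonocyte genes 0 passed in edgeR (3 higher at an unadjusted p under 0.05, 2 higher in DESeq2 and 0 in limma voom), and their sum was 26453 CPM in control replicate 1 and 31903 to 48453 CPM in the other 7 libraries. Of 9 tested crypt stem and cycling cell genes 3 rose (Axin2 at 0.84, Mki67 at 1.55 and Top2a at 1.65) and 2 fell (Lgr5 at -2.44 and Smoc2 at -2.64). Their sums did not overlap, at 246 to 471 CPM in the controls and 571 to 790.4 CPM in the others. Most of that difference came from Mki67 (means of 96.4 and 283 CPM) and Top2a (56.8 and 179 CPM). Among 8 genes of Paneth-like or deep crypt secretory cells, 4 rose and 1 fell (53.0 to 71.9 and 40.4 to 132 CPM), and of 6 tested small intestinal enterocyte genes 3 rose (799 to 1051 and 954 to 1276 CPM). Of 6 tested fibroblast, muscle and endothelial genes 1 rose and 1 fell (8.997 to 17.4 and 11.8 to 32.7 CPM). The part of these cell types in the member values was not tested.

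Other genes of the pathway, outside the naming rule, were grouped in 5 lists. Of 26 tested genes that make and carry nucleotide sugars, 1 rose and 2 fell (median log2 fold change -0.017). Pgm3, which isomerises N-acetylglucosamine phosphate, rose (0.44 ± 0.10, adjusted p = 0.0226). Gnpnat1 and Uap1, which act just before and after it in the making of the same sugar donor, fell (-0.52 ± 0.11, adjusted p = 0.0152, and -0.37 ± 0.09, adjusted p = 0.0322). Pgm3 averaged 41.3 ± 4.64 CPM in the controls and 56.1 ± 2.71 CPM in the other group (SD, n = 4 each), Gnpnat1 151 ± 16.1 and 106 ± 7.44 CPM, and Uap1 284 ± 18.8 and 219.7 ± 6.16 CPM. All 3 had no overlap between the groups. The Pgm3 call was lost without control replicate 2, 3 or 4 or Ccna2-KO replicate 1, 2 or 3, and both falls were lost without Ccna2-KO replicate 3. Either the Gnpnat1 or the Uap1 call was also lost without control replicate 2, 3 or 4 or Ccna2-KO replicate 1 or 2.

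Of 15 tested sulfotransferases and other terminal enzymes, 1 fell and 0 rose (2 higher at an unadjusted p under 0.05, 1 in DESeq2 and 1 in limma voom). The one that fell was Gal3st2, which puts sulfate on galactose, from 3.67 ± 2.297 to 0.659 ± 0.300 CPM (SD, n = 4 each; -2.48 ± 0.47, adjusted p = 0.0104). Of 10 glycosidases Fuca2, a fucosidase, rose (0.50 ± 0.09, adjusted p = 0.00784), from 102 ± 3.02 to 145 ± 9.89 CPM. None of 12 N-glycan branching and related transferases passed in edgeR (2 higher and 2 lower at an unadjusted p under 0.05, 2 and 1 in DESeq2, 0 in limma voom). Of 11 mucin backbone and mucus genes 0 passed in edgeR (1 higher at an unadjusted p under 0.05, 1 in DESeq2, 0 in limma voom), and their sum was 18616 to 25695 CPM in the controls and 23013 to 25067 CPM in the others. Over these lists together 5 genes were called, a smaller share of the genes tested than the 12.1% over all genes. The number was 21 without control replicate 1 and 2 to 5 without any 1 of the other libraries. Among all genes it was 1924 with all libraries, 4627 without control replicate 1 and 972 to 1719 without any 1 of the others.

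The 20 members that were not tested reached at most 1.81 CPM in any library. They were B3galt1, B3gnt4, B3gnt8, B4galt2, Fut4-ps1, Fut7, Galnt9, Galnt13, Galnt14, Galnt15, Galnt16, Gcnt7, St6gal2, St6galnac3, St6galnac5, St8sia2, St8sia3, St8sia3os, St8sia5 and St8sia6. B3galt1, Fut4-ps1 and St8sia3os had 0 counts in all 8 libraries. St8sia5 had 52 counts in control replicate 1 and 0 in the other controls, with 1, 0, 1 and 0 in the libraries labelled Ccna2-KO. St8sia6 had 1, 1, 2 and 0 counts in the controls and 11, 3, 2 and 3 in the others, and Galnt16 had 1, 1, 3 and 2 against 1, 0, 0 and 0. The St8sia6 ratio was 4.7 (95% interval 1.56 to 19, counting error only). The Galnt16 ratio was 0.141 (95% interval 0.00314 to 1.10, counting error only), and its interval includes 1. Such ratios were taken only for untested members without overlap between the groups, which favours values far from 1.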

How the data were processed

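RNA was measured in 8 libraries, and groups were taken from the sample titles. The authors deposited estimated counts for RefSeq transcripts. Kallisto and the build GRCm38 (mm10) are named in the submitters' processing notes, with the version of kallisto not given in any source used here. Kallisto divides reads that fit several transcripts, so values of overlapping or similar genes are uncertain. Transcripts without a symbol (3.19% to 5.51% of counts) were left out. The rest were summed per symbol and rounded. The test was edgeR 4.0.16 (R 4.3.3) with its default filter, TMM scaling and robust quasi-likelihood F test of genotype, no covariate, and Benjamini-Hochberg adjustment over 15893 genes (threshold 0.05). CPM use TMM-scaled library sizes. Values after ± are SEs for log2 fold changes and SDs (n = 4) for CPM. Counts at an unadjusted p under 0.05 are given without the share over all genes. No 2 libraries matched within sampling noise. The fit was tested on simulated data. Members, lists and alternatives (other scalings and filters, DESeq2 1.42.0, limma 3.58.1 voom, replicate block, set term, single transcripts, each library left out) were chosen with earlier results of these data known. Full values are given for each called member, the most abundant member of each family, and 1 further member per family with the largest change not called. Other members with values were chosen after these were seen. From each pathway list the 3 called genes with the smallest adjusted p were named. Coordinates are from the RefSeq annotation and exon overlaps from GENCODE M21, both on GRCm38.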

Additional observations from a re-analysis of the deposited data

Results flagged for a closer look

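In each group of 4 libraries the gap between the highest or lowest library and its nearest neighbour was divided by the range of the group on the scale of log2(CPM + 0.5). A gap of over 0.829 of the range was seen in 17 of 114 groups of tested members. For independent, normally distributed values about 1 in 20 would pass. The share over all genes is not given here, so the count is not a result about the members.

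Control replicate 1 stood apart for B3gnt9 (9.13 against 3.07 to 3.60 CPM, gap 0.862), B4galt6 (39.6 against 61.6 to 67.2 CPM, gap 0.837), C1galt1c1 (52.8 against 39.6 to 41.0 CPM, gap 0.885), Gcnt3 (236 against 471 to 494 CPM, gap 0.935), Gcnt4 (6.48 against 21.4 to 26.8 CPM, gap 0.838), St3gal1 (22.8 against 43.7 to 49.4 CPM, gap 0.842) and St6galnac6 (718 against 419 to 438 CPM, gap 0.916). Ccna2-KO replicate 4 stood apart for B3galt2 (1.37 against 5.34 to 6.57 CPM, gap 0.856), Fut1 (0.706 against 1.28 to 1.37 CPM, gap 0.885), Galnt3 (41.6 against 61.1 to 65.9 CPM, gap 0.837) and Galnt5 (9.77 against 19.7 to 21.2 CPM, gap 0.908).

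The other cases were spread over 4 libraries. Control replicate 2 stood apart for B4galt4 (48.6 against 55.6 to 57.1 CPM, gap 0.833) and Galnt7 (146 against 164 to 167 CPM, gap 0.862). Control replicate 4 stood apart for Fut1 (0.878 against 0.453 to 0.492 CPM, gap 0.891) and Gcnt1 (9.63 against 22.6 to 26.7 CPM, gap 0.833). For Ccna2-KO replicate 2 it was Galnt6 (186 against 300.4 to 314 CPM, gap 0.912), and for Ccna2-KO replicate 3 it was St3gal5 (2.96 against 0.275 to 0.438 CPM, gap 0.872).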

How the results depend on the processing

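Of the 8 called members (5 higher, 3 lower), none changed direction under any alternative run. The count was 4 (2 higher) with the replicate block, 14 (8 higher, 6 lower) with the library number set term and 1 (1 higher, 0 lower) when the most abundant transcript of each gene was tested singly, where p was adjusted over 38384 transcripts and 9 members were higher and 7 lower at an unadjusted p under 0.05. DESeq2 called 8 higher, and the stricter filter left 1 lower. With single libraries left out the count ranged from 2 to 19, with 2 to 13 higher and 0 to 6 lower (4 lower at an unadjusted p without Ccna2-KO replicate 1 and 6 without Ccna2-KO replicate 3). The share of all genes at an unadjusted p under 0.05 is not given, so the unadjusted counts cannot be set against genes at large. Of all 15893 genes tested, 1924 were called in the main fit, 987 with the replicate block, 2892 with the set term and 2949 with DESeq2. The stricter filter called 1700 of 12770, and most abundant transcripts 236 of 15422. In these settings the member count went up or down with the count over all genes. Pathway genes outside the naming rule numbered 5 called, 15 with DESeq2, 16 with the set term, 2 with the replicate block, 0 for single transcripts (edgeR, 11 at an unadjusted p under 0.05) and 2 to 21 with single libraries left out. The replicate numbers of the labels did not pair the libraries, since same-numbered libraries had correlations of -0.069, -0.352, -0.263 and 0.153 between their deviations from the group means. Sign turns were counted over the members only, with no share over all genes. Of the 49 tested members not called, the sign turned for 7 with the set term and for 12 without control replicate 1. Among those named by the rule, it turned for B3galt2 with the set term (-0.43) and without control replicate 1 for B3gnt7 (0.034), B4galnt2 (-0.020) and B4galt1 (-0.022), whose values with single libraries left out ranged from -2.30 to 0.034, from -0.020 to 0.23 and from -0.022 to 0.28. The cause of these changes was not tested. Depth limits the 20 untested members and the sizes given for Fut9, Galnt18 and St8sia4.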
